A study of Mus musculus with 15 samples.

Results

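The genes described here make, carry, break down and sense prostaglandins in the epithelium of the mouse uterus. They are 10 genes chosen by name, of 27495 named genes listed in at least 1 of the deposited tables: the cyclooxygenase genes Ptgs1 and Ptgs2, the terminal synthase genes Ptges and Ptgis, the degrading enzyme gene Hpgd, the transporter gene Slco2a1, and the receptor genes Ptger2, Ptger3, Ptger4 and Ptgfr. Of these, 8 are listed for wild type, 8 for E-OEX and 9 for U-OEx, and 5 are listed for all 3 genotypes (Ptgs1, Ptgs2, Hpgd, Slco2a1 and Ptger2). A gene outside a table was not analysed there, and its absence was not read as a level of 0.

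RNA of luminal epithelium (LE), the lining of the uterine cavity, and of the epithelium of the uterine glands (GE) was sequenced at day 4, with 3 libraries in each of 5 groups. Wild-type LE and wild-type GE are the controls. E-OEX LE, E-OEX GE and U-OEx LE come from animals labelled as overexpressing Notch1, a receptor that is cut on contact with its ligand and then acts in the nucleus. The titles separate E-OEX from U-OEx and are used here as names, since the labels say neither what the abbreviations mean nor which promoter or Cre line drives the transgene. Age, strain, pooling of animals and what day 4 counts from are not given either. Whether the libraries of a group come from separate animals is also not given, so the p-values measure only the spread between these libraries, which may be technical.

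Cyclooxygenases turn arachidonic acid, released from membranes by phospholipases, into the common precursor of all prostaglandins. Ptges makes prostaglandin E2 from it and Ptgis makes prostacyclin. Slco2a1 carries prostaglandins into the cell, where Hpgd, the NAD-dependent 15-hydroxyprostaglandin dehydrogenase, inactivates them. Ptger2 and Ptger4 encode prostaglandin E2 receptors that raise cyclic AMP, Ptger3 one that mainly lowers it, and Ptgfr the receptor for prostaglandin F2 alpha. Prostaglandins of the uterus are known for their part in embryo implantation, decidualization and the contraction of the muscle wall.

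The promoters of 3 of the genes are shown as examples. Ptges and Slco2a1 were higher in U-OEx LE than in wild-type LE, as described below, and the Ptgs2 promoter held a searched motif. Ptger2, Ptgs1 and Ptger4, which also differed between these LE groups, and Hpgd, which also held a motif, are not shown. Each is a 300-base window around the RefSeq start of the gene in build GRCm38.p6, written 5′ to 3′ on the gene's strand, and RefSeq windows were found for 9 of the 10 genes. Ptges lies on the minus strand at chr2:30903248-30903547, Ptgs2 on the plus strand at chr1:150099781-150100080 and Slco2a1 on the plus strand at chr9:103008237-103008536. Capitals mark the motifs found, and Slco2a1 has none.
Ptges: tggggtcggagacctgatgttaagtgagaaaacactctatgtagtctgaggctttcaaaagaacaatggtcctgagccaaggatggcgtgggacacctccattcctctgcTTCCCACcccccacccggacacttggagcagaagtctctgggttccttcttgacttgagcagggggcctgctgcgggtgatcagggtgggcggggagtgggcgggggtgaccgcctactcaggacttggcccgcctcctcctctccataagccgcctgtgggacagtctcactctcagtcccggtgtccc
Ptgs2: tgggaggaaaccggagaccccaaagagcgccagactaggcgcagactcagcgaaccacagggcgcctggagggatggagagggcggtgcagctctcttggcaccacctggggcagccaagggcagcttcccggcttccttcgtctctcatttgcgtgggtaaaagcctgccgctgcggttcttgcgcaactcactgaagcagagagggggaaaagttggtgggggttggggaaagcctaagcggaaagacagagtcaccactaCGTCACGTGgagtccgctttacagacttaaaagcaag
Slco2a1: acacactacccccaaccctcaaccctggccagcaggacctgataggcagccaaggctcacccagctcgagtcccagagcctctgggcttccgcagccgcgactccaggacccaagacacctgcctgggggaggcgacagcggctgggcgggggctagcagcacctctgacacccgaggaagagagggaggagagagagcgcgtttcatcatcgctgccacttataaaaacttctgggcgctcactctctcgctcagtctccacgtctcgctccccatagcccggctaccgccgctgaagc
The capitals in Ptges are GTGGGAA read on the opposite strand, the motif of RBPJ, the DNA-binding partner of Notch, 140 to 134 bases before the start. The same letters hold TGGGAA, the shorter RBPJ core, so the 2 matches are 1 site. GTGGGAA stood on either strand in 6.38% of 32851 windows of this length, and TGGGAA in 25.6%. The capitals in Ptgs2 are CACGTG, a sequence bound by Hes and Hey repressors, 16 bases after the start, overlapped by TGACG on the opposite strand, a part of the cyclic AMP response element. CACGTG was in 7.15% of the windows and TGACG in 20.8%. Hpgd held CACGCG 14 bases before its start, as did 9.27% of windows. TGANTCA, the AP-1 motif, was in none of the 9 windows and in 7.81% of all. The other 6 genes matched none of the motifs searched on either strand. A match is a description of these letters and shows no binding.

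In GRCm38, the build named in the submitters' processing notes, GENCODE M21 places Ptgs1 (ENSMUSG00000047250) at chr2:36230426-36252272, Ptgs2 (ENSMUSG00000032487) at chr1:150100031-150108227 and Ptges (ENSMUSG00000050737) at chr2:30889471-30929863. Hpgd (ENSMUSG00000031613) is at chr8:56294585-56321043, Slco2a1 (ENSMUSG00000032548) at chr9:102988712-103096002 and Ptger2 (ENSMUSG00000037759) at chr14:44988195-45003820. Because GENCODE also annotates earlier starts, the windows printed for Ptges and Slco2a1 lie inside the annotated gene. Exons of Ptger4 share 1015 bases with genes on the opposite strand, Ttc33 among them, and those of Ptgfr share 329. The sources used here do not say whether counting used strand, so reads in those bases cannot be told apart.

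Some facts about all libraries bear on what follows. The wild-type and E-OEX tables hold only genes whose GE and LE means differed by about 2-fold or more. A wild-type library held 3818041 to 4797424 reads in those genes and an E-OEX library 1980800 to 3494859, and a U-OEx library held 13541644 to 14981505 over its whole table. Notch1 itself was listed only for U-OEx LE (2913, 3524 and 2789), so the labels could not be checked on it. Hey1, a known Notch target, was at 31.1 to 163 in wild-type LE, 1104 to 1832 in E-OEX LE and 889 to 1308 in U-OEx LE. Stromal markers were far higher in GE than in LE. Over 7 shared markers such as Col1a1, their sum was 33937 to 99770 in wild-type GE against 369 to 7720 in wild-type LE. Over 9 markers it was 79661 to 95021 in E-OEX GE against 505 to 2730 in E-OEX LE. Smooth muscle and pericyte markers (7 genes) summed to 5057 to 8322 in wild-type GE against 110 to 349 in wild-type LE. In E-OEX, 8 of them summed to 18389 to 20410 in GE against 18.3 to 74.9 in LE. Endothelial markers (7 genes) summed to 2594 to 4390 in wild-type GE against 190 to 234 in wild-type LE. In E-OEX, 6 of them summed to 2976 to 8773 in GE against 81.7 to 335 in LE. General epithelial markers were lower in GE. Cdh1, Epcam and Krt19 summed to 14856 to 15832 in wild-type GE against 46881 to 55058 in wild-type LE. Cdh1 and Krt19 summed to 14008 to 17700 in E-OEX GE against 33458 to 51892 in E-OEX LE. The part of these marker differences in the GE and LE values below was not tested. In bulk RNA of this kind, fewer cells of a type and less RNA per cell cannot be told apart.

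In wild type, Ptgs1, Ptgs2, Ptger2 and Ptger4 were higher in LE, and Hpgd, Slco2a1, Ptges and Ptgfr were higher in GE. Values here are scaled read counts as deposited, in replicates 1 to 3. Ptgs1 was at 3513, 2077 and 2352 in LE and at 322, 251 and 244 in GE. Its LE libraries all lay above its GE libraries, by a ratio of means of 9.72. Ptgs2, the inducible cyclooxygenase, was at 297, 1480 and 1938 in LE and at 52.6, 82.5 and 40.7 in GE. The groups did not overlap, although LE replicate 1 held far less than the other LE libraries. Ptger2 was at 2501, 3598 and 3246 in LE and at 38.0, 14.2 and 24.2 in GE, a ratio of means of 122. Ptger4 was at 1409, 1075 and 1830 in LE and at 413, 500 and 471 in GE, so it remained well detected in both.

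The glandular side showed the reverse. Hpgd was at 2052, 1862 and 1908 in wild-type GE and at 12.4, 282 and 131 in LE. The GE libraries were close together and the LE libraries spread 22.7-fold. Slco2a1 was at 1529, 1083 and 1735 in GE and at 139, 73.7 and 49.2 in LE, without overlap. Ptges was at 65.2, 89.1 and 39.8 in GE, and in LE it had 8 reads in replicate 2 and none in the others. Ptgfr was at 10.7, 17.1 and 10.4 in GE and had 1 read in all of LE. Over the reads of 3 libraries a group, 41 against 1, its ratio was 35.9 with a 95% exact interval of 6.09 to 1453 that covers counting error only.

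All 8 listed genes passed an adjusted p-value of 0.05 (limma, Benjamini-Hochberg over 6096 genes), 4 higher in GE and 4 lower, and the groups overlapped for none of the 8. The table was selected for this difference, so the count says nothing particular about these genes: 97.3% of all genes in it passed, 58.1% higher and 39.2% lower, and 96.1% did not overlap. The log2 differences, GE minus LE, were -6.97 (SE 0.37) for Ptger2, -4.06 (SE 0.69) for Ptgs2, -3.25 (SE 0.25) for Ptgs1 and -1.61 (SE 0.24) for Ptger4. They were 4.61 (SE 0.995) for Hpgd, 4.14 (SE 0.40) for Slco2a1 and 4.90 (SE 0.91) for Ptges. The median over the 8 was 0.90, or 0.20 with Ptgfr set at its bound, against 1.42 over all genes tested. Hpgd in wild-type LE had the order of the stromal marker sum in the same libraries (369, 7720 and 2461). Ptges had its only LE reads in replicate 2, where that sum was highest. Ptger2, which was lower in GE, also had the order of that sum in LE (2501, 3598 and 3246). The part of stromal, smooth muscle, pericyte or endothelial RNA in these values, and in the GE values, was not tested.

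Per kilobase of the longest coding transcript, the leading genes of wild-type LE were Ptgs1 at 923 ± 266 and Ptger2 at 845 ± 152 scaled reads (SD, n = 3). Ptger4 followed at 434 ± 114 and Ptgs2 at 278 ± 190. In wild-type GE the per-kilobase order began with Hpgd at 1153 ± 58.9, Slco2a1 at 203 ± 46.8 and Ptger4 at 139 ± 13.4. The spreads of Ptgs1 and Ptger2 in LE overlap, and their order there is not resolved.

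**Figure D1:**
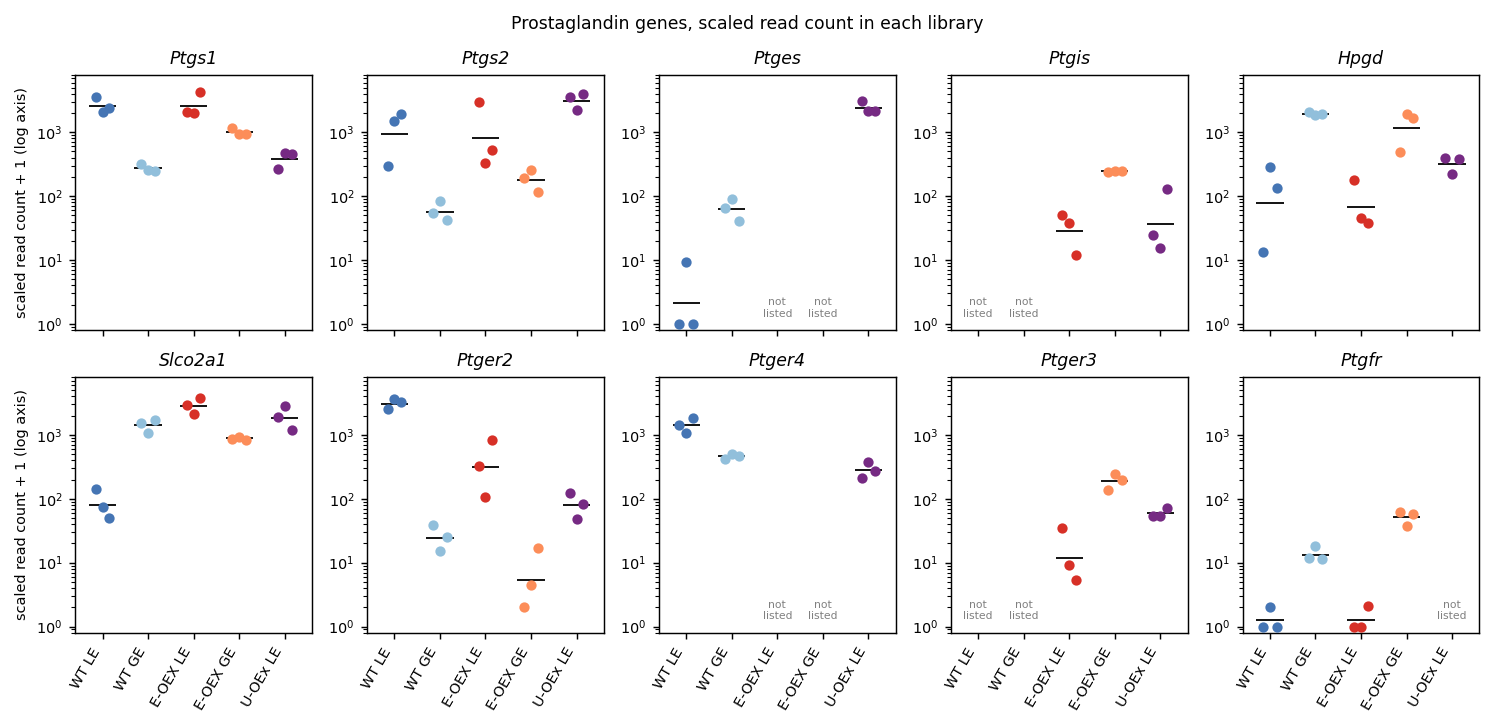
Scaled read count plus 1 (log axis, as deposited) of each of the 10 genes in every library, by group, with points for libraries and a line for the mean of the log values. Slco2a1 is lowest in wild-type LE (49.2 to 139) and Ptges is highest in U-OEx LE (2116 to 3053).

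In E-OEX, the same 6 genes that both sets of tables list split between the epithelia as in wild type, with the exception of Slco2a1. Ptgs1 was at 2047, 2026 and 4276 in E-OEX LE and at 1185, 927 and 921 in E-OEX GE, a ratio of means of 2.75. Ptgs2 was at 3000, 332 and 535 in LE and at 192, 258 and 115 in GE. Replicate 1 alone made up most of the LE mean, and the lowest LE library stood little above the highest GE library. Ptger2 was at 328, 107 and 844 in LE and at 1.001, 3.45 and 15.9 in GE, without overlap. Hpgd was at 179, 44.5 and 36.7 in LE and at 484, 1908 and 1679 in GE, with GE replicate 1 the lowest of its group. Slco2a1 was at 2931, 2123 and 3735 in LE and at 868, 939 and 826 in GE. Each LE library lay above every GE library, opposite to wild type.

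Both genes listed for E-OEX and not for wild type were higher in GE. Ptgis was at 50.2, 36.3 and 10.8 in LE and at 241, 246 and 250 in GE, and Ptger3 was at 33.8, 8.17 and 4.32 in LE and at 134, 244 and 196 in GE. In LE both had the order of the stromal sum of the same libraries (2730, 1214 and 505), whose part in them was not tested. Hpgd had the same order in E-OEX LE. Ptgfr was at 62.1, 36.8 and 56.2 in GE and had 1 read in LE, a ratio of 164 by counting (95% exact interval 29.0 to 6512).

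All 8 genes passed the threshold between the E-OEX epithelia (limma, 4681 genes), 4 higher in GE and 4 lower, without overlap of the groups for any of the 8. Of all genes in this selected table, 92.1% passed, 63.3% higher and 28.9% lower, and 90.6% did not overlap. The log2 differences, GE minus LE, were -5.87 (SE 0.96) for Ptger2, -1.38 (SE 0.38) for Ptgs1, -2.18 (SE 0.78) for Ptgs2 and -1.70 (SE 0.32) for Slco2a1. They were 4.10 (SE 0.74) for Hpgd, 3.97 (SE 0.71) for Ptger3 and 3.13 (SE 0.58) for Ptgis. The call for Ptgs2 (limma adjusted p = 0.0274) was lost when any 1 E-OEX GE library was left out, with adjusted p-values of 0.0558 to 0.109. The median over the 8 was 0.88, against 1.82 over all genes tested.

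Whether the split between the epithelia differed between wild type and E-OEX was tested with the interaction of epithelium and genotype, on 6 of the 10 genes. Slco2a1 had an interaction of -5.84 (log2, SE 0.54, limma adjusted p = 8.85e-05), and it passed in every fit that left out 1 library. Its GE minus LE difference changed sign between genotypes, as it did for 3.71% of the 2776 genes in both tables. Ptgs1 had an interaction of 1.87 (SE 0.49, limma adjusted p = 0.0269), with a smaller split between the epithelia in E-OEX than in wild type. That call was lost in 8 of the 12 fits that left out 1 library. These were 2 of 6 genes, 1 in each direction, where 11.0% of all genes passed, 6.05% positive and 4.94% negative. Values for the rest were 1.88 (SE 1.12) for Ptgs2, 1.93 (SE 0.69) for Ptgfr, 1.10 (SE 1.12) for Ptger2 and -0.51 (SE 1.32) for Hpgd, with limma adjusted p-values from 0.0935 to 0.881. The median of the 6 was 1.49, against 0.32 over all genes.

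**Figure D2:**
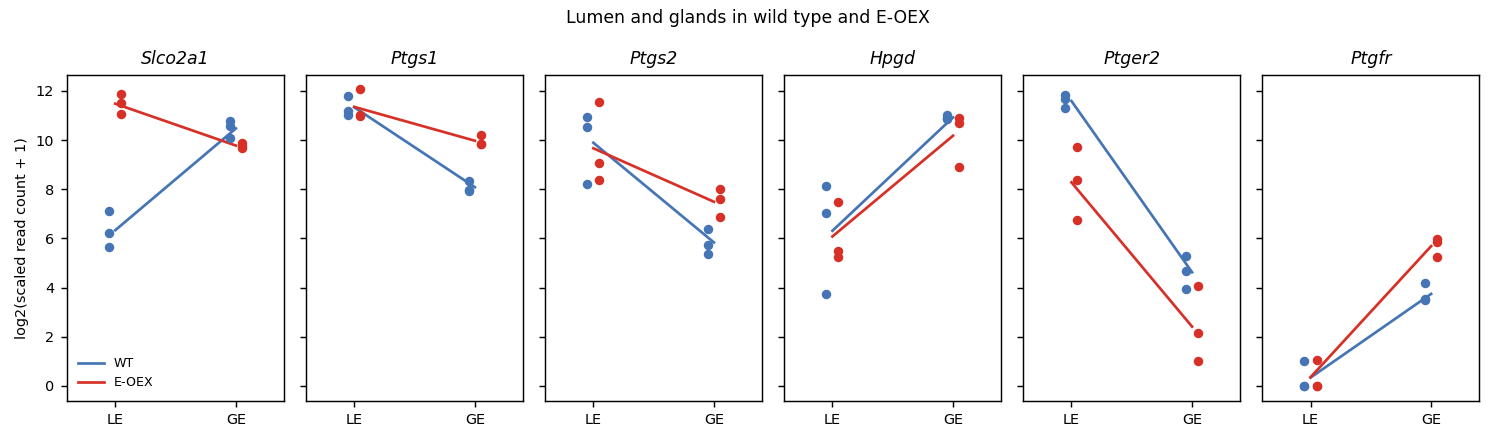
Scaled read count as log2(value + 1), as deposited, in LE and GE of wild type (blue) and E-OEX (red) for the 6 genes listed in both, with points for libraries and lines joining group means. The Slco2a1 lines cross, since E-OEX LE lies at 2123 to 3735 against 49.2 to 139 in wild-type LE.

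The comparison of E-OEX LE with wild-type LE asked how Notch1 overexpression went with the luminal levels. Slco2a1 rose and Ptger2 fell in E-OEX LE. Tests were possible for 5 of the 6 genes listed in both, since Ptgfr had 1 read in each group, and 2 of the 5 passed and did not overlap between the groups. Of 2453 genes, 11.1% passed, 5.38% higher and 5.71% lower, and 29.7% did not overlap. From reads rescaled together, Slco2a1 went from 95.8 ± 57.9 to 2742 ± 775 (SD, n = 3), a difference of 4.95 on the log2 scale (SE 0.51, adjusted p in limma = 0.00117). All 3 E-OEX LE libraries lay above all 3 wild-type ones. Ptger2 went from 3325 ± 362 to 401 ± 371, a difference of -3.51 on the log2 scale (SE 0.65, adjusted p in limma = 0.0111). The Ptger2 call was lost without wild-type LE replicate 3 or E-OEX LE replicate 1 (limma adjusted p = 0.0564 and 0.0534).

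The cyclooxygenases and Hpgd did not pass between these LE groups. The log2 difference was -0.18 for Ptgs1 (95% interval -1.25 to 0.88), -0.42 for Ptgs2 (-2.30 to 1.45) and -0.43 for Hpgd (-2.69 to 1.84). The intervals of Ptgs2 and Hpgd leave room for falls of over 4-fold, and the sign of all 3 turned under some alternatives. The median over the 5 genes was -0.42, against -0.08 over all genes.

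Between the gland groups, Ptgs1 and Ptgfr rose in E-OEX GE and Slco2a1 and Ptger2 fell. From 335 ± 64.3 in wild-type GE, Ptgs1 went to 901 ± 216 in E-OEX glands (SD, n = 3, rescaled reads), a difference of 1.41 on the log2 scale (SE 0.27, adjusted p in limma = 0.00449). Ptgfr went from 15.5 ± 3.89 to 45.8 ± 13.4 with a difference of 1.49 on the log2 scale (SE 0.40, adjusted p in limma = 0.0224). Slco2a1 went from 1786 ± 462 to 778 ± 110 with a difference of -1.17 on the log2 scale (SE 0.27, adjusted p in limma = 0.0113). Ptger2, low in both, went from 31.6 ± 15.9 to 5.54 ± 6.16 with -2.65 (SE 0.72, limma adjusted p = 0.025). Ptgs2 at 1.19 (SE 0.41) and Hpgd at -1.22 (SE 0.42) missed the threshold with limma adjusted p-values of 0.0631 and 0.0643. On the rescaled reads, Ptgs2 was the only one of the 6 genes whose values overlapped between the gland groups. As deposited, Ptgs2 did not overlap, while Hpgd and Ptger2 did.

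In the glands 4 of 6 genes thus passed, 2 in each direction, and 5 did not overlap on the rescaled reads. Of 2709 genes, 24.1% passed, 10.1% higher and 14.0% lower, and 40.5% did not overlap. The calls depended on scale and on single libraries. On the deposited scale the median of all genes lay at 0.51 in place of 0.05, Slco2a1 (limma adjusted p = 0.0581) and Ptger2 (0.0551) missed the threshold, and Ptgs2 passed it (0.0137). Ptgs1 alone remained when wild-type GE replicate 1 or 3 was left out. Smooth muscle and pericyte markers, 7 genes such as Acta2, summed as deposited to 18377 to 20386 in E-OEX glands and to 5057 to 8322 in wild-type glands. On the rescaled reads 3 of the 7 passed as higher and 4 did not pass, with a median log2 difference of 0.66. The gland markers in both tables, 6 genes such as Spink1, summed as deposited to 4405 to 5969 and to 21965 to 30111. Of the 6, 5 passed as lower in E-OEX glands and 1 did not pass. Foxa2 was at 2265 ± 326 in E-OEX glands and 2364 ± 192 in wild-type glands on the deposited scale. The part of either set of markers in these differences was not tested. The median over the 6 genes was 0.01, against 0.05 over all genes.

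U-OEx LE differed from wild-type LE in 6 of the 7 genes tested, with Ptges, Slco2a1 and Ptgs2 higher. Ptges was at 3053, 2116 and 2130 in U-OEx LE, where wild-type LE held 8 reads in 1 library and none in the others. The log2 difference was 10.17 (SE 0.82, limma adjusted p = 3.43e-05), a size that depends on the pseudocount of 1 and was 12.43 with 0.1. Slco2a1 was at 1921, 2802 and 1207, all above wild-type LE, with a difference of 4.47 on the log2 scale (SE 0.48, adjusted p in limma = 0.000129). Ptgs2 was at 3609, 2188 and 3899, above the highest wild-type LE library at 1938, with a difference of 1.66 on the log2 scale (SE 0.61, adjusted p in limma = 0.045). The Ptgs2 call was lost with edgeR (adjusted p = 0.0663), with DESeq2 (adjusted p = 0.076) and when any U-OEx LE library was left out.

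Ptgs1, Ptger2 and Ptger4 fell in U-OEx LE. Ptgs1 was at 269, 469 and 449, all below wild-type LE, with a difference of -2.81 on the log2 scale (SE 0.34, adjusted p in limma = 0.000237). Ptger2 was at 120, 48.0 and 82.6, a difference of -5.34 on the log2 scale (SE 0.35, adjusted p in limma = 1.53e-05). Ptger4 was at 210, 377 and 270, a difference of -2.40 on the log2 scale (SE 0.31, adjusted p in limma = 0.000381). Hpgd, at 395, 219 and 385, overlapped wild-type LE and did not pass (1.97, SE 0.94, limma adjusted p = 0.106), but did so without wild-type LE replicate 2 (2.84, limma adjusted p = 0.0292). The 3 genes that rose and 3 that fell make 6 of 7 tested, and those 6 did not overlap between the groups. Of 5652 genes, 56.4% passed, 29.2% higher and 27.2% lower, and 63.4% did not overlap. The median over the 7 was 1.66, against 0.11 over all genes. E-OEX LE and U-OEx LE were set against the same wild-type libraries, so their differences from wild type are not independent of each other.

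Leukocyte markers were listed in full for U-OEx LE only, where the 9 summed to 29893, 8733 and 38984 in replicates 1 to 3, S100a8 and S100a9 among the highest. Over the 4 markers shared with wild type (Cd52, Lyz2, Adgre1 and Cd68), the sum was 1534 to 3158 in U-OEx LE and 603 to 1297 in wild-type LE. Ptges (3053, 2116 and 2130) and Ptgs2 (3609, 2188 and 3899) were both lowest in replicate 2, the library with the lowest leukocyte sum. Ptgs2 took the order of the 9-marker sum, and Ptges was highest in replicate 1. The stromal sum of the same libraries (1014, 682 and 2675) had the same order as the leukocyte sum. The part of leukocyte or stromal RNA in the values of either gene was not tested. Luminal markers, 5 genes such as Calb1 and Wnt7a, summed to 5426 to 8417 in U-OEx LE, 13319 to 17804 in E-OEX LE and 31503 to 57901 in wild-type LE. Gland markers, 7 genes such as Foxa2, summed to 1011 to 1389 in U-OEx LE and 45.6 to 103 in wild-type LE. Of 6 tested, 3 passed as higher and 1 as lower, and Spink1, Ttr and Prss29 had no reads in U-OEx LE. In E-OEX LE, 6 gland markers summed to 1010, 200 and 111 in replicates 1 to 3. The part of gland RNA in the LE values was not tested. All these sums are on the deposited scale.

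**Figure D3:**
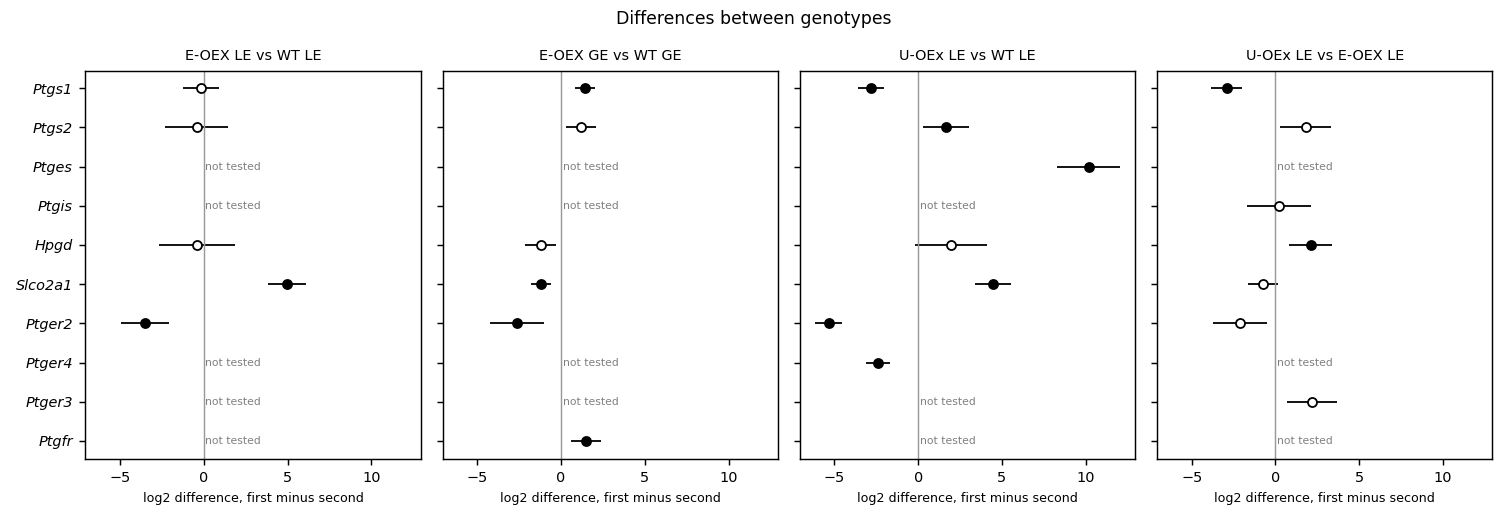
Log2 difference between genotypes (rescaled reads, limma) with 95% intervals for the 10 genes, filled where the adjusted p-value was under 0.05. Slco2a1 is higher in LE of both overexpressing groups (4.95 and 4.47) and lower in E-OEX GE (-1.17), and Ptges at 10.17 in U-OEx LE has no E-OEX value.

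The direct comparison of both overexpressing LE groups called Ptgs1 and Hpgd. Ptgs1 went from 3162 ± 1580 in E-OEX LE to 400 ± 105 in U-OEx LE (SD, n = 3, rescaled reads), a difference of -2.90 on the log2 scale (SE 0.41, adjusted p in limma = 0.00636), without overlap. This call was lost without U-OEx LE replicate 1 (limma adjusted p = 0.0523). Hpgd went from 91.9 ± 75.4 to 338 ± 98.8, a difference of 2.11 on the log2 scale (SE 0.57, adjusted p in limma = 0.0405), which edgeR did not call (adjusted p = 0.0743) and which was lost in 5 of the 6 fits that left out 1 library. These were 2 of 7 genes, 1 in each direction, and with Ptger2 and Ptger3 4 of 7 did not overlap on the rescaled reads. Of 4071 genes, 14.6% passed, 6.85% higher and 7.74% lower, and 38.1% did not overlap. Slco2a1 differed by -0.76 (95% interval -1.66 to 0.14), Ptgs2 by 1.80 (0.29 to 3.32), Ptger2 by -2.12 (-3.71 to -0.53), Ptger3 by 2.19 (0.68 to 3.70) and Ptgis by 0.23 (-1.68 to 2.15), with limma adjusted p-values of 0.0586 to 0.874. As deposited, Ptgis was at 23.9, 14.2 and 128 and Ptger3 at 53.3, 52.4 and 71.1 in U-OEx LE. Both had the order of the stromal sum over 9 markers in the same libraries (1014, 682 and 2675). The leukocyte sum had that order too, and the part of either in them was not tested. The median of the 7 was 0.23, against 0.06 over all genes.

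The weight of the cyclooxygenases against each other was unlike in U-OEx LE. The ratio of Ptgs2 to Ptgs1 per kilobase was 8.63, 3.002 and 5.597 in U-OEx LE. In wild-type LE it was 0.0545, 0.459 and 0.531, and in E-OEX LE 0.944, 0.106 and 0.0806. U-OEx LE was the only group of the 5 with each ratio above 1. With all annotated exons merged as the length, E-OEX LE replicate 1 came to 1.24 and the U-OEx LE libraries to 3.95 to 11.4. In the glands Ptgs1 led in every library, with ratios of 0.0806 to 0.211. Per kilobase of coding transcript, Ptgs2 at 726 ± 206 and Ptges at 667 ± 147 scaled reads led the 9 listed genes of U-OEx LE (SD, n = 3), followed by Slco2a1 at 278 ± 112 and Hpgd at 198 ± 58.9. The spreads of Ptgs2 and Ptges overlap, and their order is not resolved. By mean scaled read count, not corrected for length, Ptgs2 ranked 675th, Ptges 1057th and Slco2a1 1420th among 27185 named genes.

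**Figure D4:**
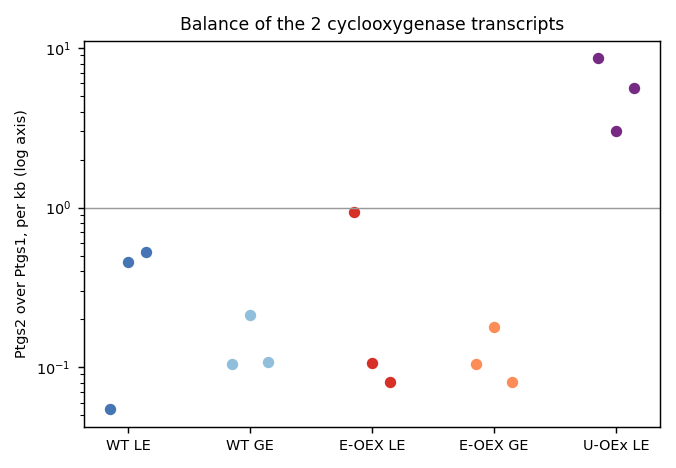
Ratio of the Ptgs2 to the Ptgs1 scaled read count per kilobase (log axis) in each library, by group, with a line at 1. The U-OEx LE libraries lie at 3.002 to 8.63, and the other 12 libraries lie below 1.

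Across the 5 groups each gene took its own order of levels. The deposited means of Slco2a1 ran from 2930 ± 806 in E-OEX LE over 1977 ± 799 in U-OEx LE, 1449 ± 333 in glands of wild type and 878 ± 57.1 in those of E-OEX to 87.2 ± 46.3 in wild-type LE (SD, n = 3). E-OEX LE overlaps U-OEx LE, and U-OEx LE overlaps wild-type GE, while E-OEX GE and wild-type LE each lie apart from their neighbours. For Ptger2 the order was wild-type LE at 3115 ± 560, E-OEX LE at 426 ± 378, U-OEx LE at 83.7 ± 36.2, wild-type GE at 25.5 ± 11.9 and E-OEX GE at 6.79 ± 8.004. The E-OEX and U-OEx LE values of Ptger2 meet between 107 and 120, and the GE groups meet between 14.2 and 15.9, although neither pair overlapped on the rescaled reads. Hpgd was highest in the glands, at 1940 ± 99.1 in wild type and 1357 ± 765 in E-OEX, and the LE groups followed with U-OEx at 333 ± 99.2, wild type at 142 ± 135 and E-OEX at 86.7 ± 80.0. The gland groups overlapped for Hpgd on this scale, and wild-type LE overlapped both other LE groups.

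Other genes of the prostanoid pathway were followed with 56 genes in 7 lists. In wild type, 27 were listed and tested, and 14 were higher and 11 lower in GE, where 97.3% of the selected table passed. All 4 listed genes of arachidonate release were lower in GE, among them Pla2g4a, the cytosolic phospholipase, at 7536 ± 3235 in LE and 2504 ± 238 in GE. Of the synthases, Hpgds, which makes prostaglandin D2, was higher in GE at 875 ± 222 against 35.3 ± 15.7. Akr1c18, an aldo-keto reductase, was at 65.6 ± 4.74 in GE and 2.55 ± 2.83 in LE. Ptgr1, which further degrades prostaglandins, was lower in GE at 61.6 ± 10.9 against 1560 ± 356. The median of the 27 was 1.22, or 0.46 with 5 genes at the read floor set at their bounds, against 1.42 over all genes. In E-OEX 21 were tested, with 10 higher and 9 lower in GE, where 92.1% of all genes passed, 63.3% higher and 28.9% lower. Among the 21 were Hpgds (1063 ± 397 in GE, 79.6 ± 43.5 in LE) and Pla2g5 (161 ± 115 and 592 ± 243). The median of these 21 was -0.96, against 1.82 over all genes.

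Between E-OEX LE and wild-type LE, 1 of 16 tested genes rose and 1 fell, near the 11.1% of all genes that passed. Pla2g4c, a phospholipase, rose by 2.005 (log2, SE 0.55, limma adjusted p = 0.0431) and Lpar3, a lysophosphatidic acid receptor known to act upstream of uterine Ptgs2, had -2.43 (SE 0.52, limma adjusted p = 0.0181). The median of the 16 was 0.13, against -0.08 over all genes. In the glands, 2 of 17 rose in E-OEX (Pla2g5 by 2.94 and Bmp2 by 1.61) and 4 fell, where 24.1% of all genes passed (10.1% higher and 14.0% lower). The falls were those of Akr1c18 (-4.07), Lif (-3.47), Pla2g4a (-1.39) and Pparg (-1.28), with limma adjusted p-values from 0.000135 to 0.0199. Over the 17 the median was 0.14, against 0.05 over all genes. Lif, a gland cytokine needed for implantation, and Lpar3 also had interactions of epithelium and genotype (-4.93 and 2.85, limma adjusted p = 0.00948 and 0.0107), 2 of 17 tested, where 11.0% of all genes passed.

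U-OEx LE differed from wild-type LE in 14 of the 26 pathway genes tested, 5 higher and 9 lower, near the 56.4% of all genes that passed (29.2% higher and 27.2% lower). Slco4a1, an organic anion transporter, was at 2040, 1226 and 2273 in U-OEx LE and at 2.24 to 11.3 in wild-type LE, a difference of 8.19 on the log2 scale (SE 0.52, adjusted p in limma = 1.31e-05). Lif (3.87), Pla2g4c (2.03) and Cbr2 (1.47), a carbonyl reductase, rose too. Alox5, which starts leukotriene synthesis, was at 169, 53.3 and 370 in U-OEx LE and had 1 read in wild-type LE. It took the order of the leukocyte marker sum of the same libraries, which the stromal sum shared. The part of either sum in it was not tested. Lower were Lpar3 (-4.74), Ptgds (-3.60), Ptgr1 (-3.53), Pla2g4a (-3.12), Pla2g5 (-2.79), Ptgdr (-2.45), Alox15 (-2.47), Alox12e (-2.43) and Alox12 (-2.39). Ptgds and Ptgdr held at most 33 reads in any of these libraries, and reads of the related Alox genes could be split between copies in counting. Over the 26 the median was 0.43, against 0.11 over all genes. Against E-OEX LE, Pparg rose by 1.89 in U-OEx LE, and Pla2g5 (-4.08), Lpar3 (-2.59) and Pla2g4a (-2.13) fell. These are 4 of 21 tested, where 14.6% of all genes passed (6.85% higher and 7.74% lower). The median of the 21 was -0.18, against 0.06 over all genes.

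**Figure D5:**
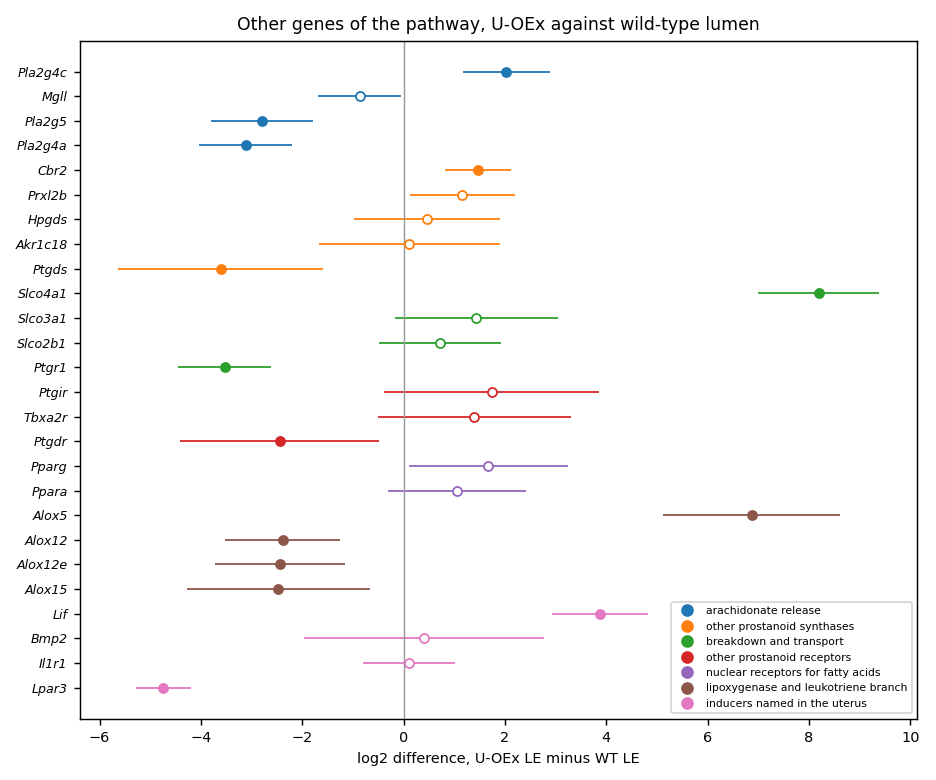
Log2 difference, U-OEx LE minus wild-type LE, with 95% intervals for the 26 other pathway genes tested, coloured by list and filled where the limma adjusted p-value was under 0.05. Slco4a1 (8.19) stands highest and Lpar3 (-4.74) lowest, and the Alox5 position depends on the pseudocount because wild-type LE held 1 read.

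The genes of most similar pattern were sought for the 5 genes listed for all genotypes, by Pearson's r over 15 libraries among 2375 genes, on rescaled log2 values. The libraries fall into 5 groups, so these coefficients describe group differences, and they carry no p-value. Ptgs1 was nearest to Styk1 (0.98), Porcn (0.97) and Ank (0.97), and Ptgs2 to Csf3, Cyp21a1 and Ncoa7 (0.96 each). Hpgd was nearest to Irs2 (0.97), Gfpt2 (0.94) and Gm45540 (0.94). Slco2a1 was nearest to Bdh1 (0.95), Gm47468 (0.92) and Mettl21b (0.90), and Ptger2 to Btbd19 (0.98), Ddx58 (0.98) and Pde7a (0.97).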

How the data were processed

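RNA was sequenced from 15 libraries of mouse uterine epithelium, 3 in each of 5 groups taken from titles and labels. The deposited values are a signal, read counts that the authors divided by 1 factor per library. This was read from the values: with each library's factor removed, 100% of them were whole to within 0.01. Builds GRCm38 and mm10 are named per the submitters' processing notes. The aligner, counting tool, annotation and scaling are not given in the sources used here. Entries with no gene name (0.756% to 5.09% of reads) were left out.

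limma (version 3.58.1, R 4.3.3, lmFit and eBayes with trend) tested log2(value + 1) where the mean value was 1 or more. P-values were adjusted by Benjamini and Hochberg over all genes of each of 7 comparisons, with a threshold of 0.05. Fold changes on this scale understate low genes. Comparisons within a genotype and the interaction used the deposited values. Those between genotypes used the reads of shared genes, rescaled together with TMM of edgeR (version 4.0.16), because the tables may have been scaled separately. The listed genes differ between the epithelia, and TMM assumes that most do not change between genotypes. The smallest exact p for 3 libraries against 3 is too large to pass the threshold, so single-gene permutation was not used.

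Alternatives were the pseudocount, the filter, edgeR's quasi-likelihood test, DESeq2 (version 1.42.0), quantile normalization, the deposited scale, 1 fit over all groups, the replicate number as a block, and leaving out each library. The fit was tested on simulated counts. Replicates were not copies of each other, with a chi-square of 15.7 to 187 per degree of freedom over 15 pairs. The deviations of same-numbered libraries from their group means were compared. No comparison had all 3 correlations over 0.1, although all 3 were positive in wild-type GE against LE and between the gland groups, so the numbers were not taken as pairs. Depth is known for U-OEx alone, since the other tables hold selected genes. A group with at most 3 reads in each library counts as at the floor. Promoter windows came from RefSeq and lengths from GENCODE M21, the longest coding transcript of each gene. All 10 genes are reported in every table that lists them, and of the other pathway genes those that passed at least once may be named. The genes and lists were chosen with earlier results of these data known.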

Additional observations from a re-analysis of the deposited data

Results flagged for a closer look

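The genotype difference in GE minus that in LE was tested directly for the 6 genes listed in both wild type and E-OEX, and it differed for 2 of them. For Slco2a1 it was -5.84 on the log2 scale (SE 0.54, limma adjusted p = 8.85e-05), with E-OEX LE above wild-type LE in 3 of 3 libraries and with the E-OEX gland mean below that of wild type. For Ptgs1 it was 1.87 (SE 0.49, limma adjusted p = 0.0269), where E-OEX GE lay above wild-type GE in 3 of 3 libraries and the LE groups overlapped.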

How the results depend on the processing

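Of the genes called in the genotype comparisons, Slco2a1 in LE of E-OEX and U-OEx, and Ptges, Ptger2, Ptger4 and Ptgs1 in U-OEx LE, kept direction and call under each alternative run on them. The number of the 10 genes called between E-OEX LE and wild-type LE went from 2 to 1 with no filter on low values, and lay between 1 and 2 with a library left out. In the glands it went from 4 to 2 in 1 fit over all 5 groups, which left out Ptgfr as a gene of 2 genotypes, and lay between 1 and 4 with a library left out. The interaction count of 2 lay between 1 and 3. U-OEx LE against wild-type LE went from 6 to 3 in 1 fit over all 5 groups, in which Ptges and Ptger4 could not be tested. U-OEx LE against E-OEX LE, with 2 called, had 1 with a pseudocount of 0.1, no filter or edgeR, and 4 with DESeq2, the replicate block or 1 fit over all 5 groups, and 0 to 4 with a library left out. Otherwise the cause was not tested.

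With the replicate block, Ptgs2 and Hpgd passed between the gland groups (limma adjusted p = 0.0157 and 0.023), and Ptgs2 and Ptger2 passed between U-OEx LE and E-OEX LE (0.0499 and 0.0412). Signs turned for values that passed nowhere. Between E-OEX LE and wild-type LE, Ptgs1 was 0.18 with quantile normalization, 0.016 on the deposited scale and -0.42 to 0.10 with a library left out. In the same fits Ptgs2 was -1.29 to 0.17 and Hpgd -1.65 to 0.41. The Hpgd interaction was 0.13 with DESeq2 and -1.43 to 0.77 with a library left out. Ptgis between U-OEx LE and E-OEX LE was -0.64 to 0.87.

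The count over all genes moved as well. Between E-OEX LE and wild-type LE, 272 genes passed in limma and 228 in edgeR on the recovered reads, with 103 under no filter, 437 with DESeq2, 646 in 1 fit over all 5 groups and 58 without wild-type LE replicate 3. For U-OEx LE against wild-type LE it was 3186 with limma, 3047 with edgeR and 1244 in 1 fit over all 5 groups. For U-OEx LE against E-OEX LE it was 594 with limma, 432 with edgeR, 273 with no filter and 51 without U-OEx LE replicate 1. The interaction gave 305 with limma, 253 with edgeR and 484 with DESeq2. The gland groups gave 652 with limma, 634 with edgeR and 298 in 1 fit over all 5 groups. Reads limit Ptges in wild-type LE and Ptgfr in LE of wild type and E-OEX, where 0 to 8 reads were found per library. They also limit Ptger2 in E-OEX GE, with 1, 3 and 17 reads in replicates 1 to 3.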
